A study of Homo sapiens with 12 samples.

Results

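The 53 genes of the DNA replication machinery are described here in U937 cells, a human myelomonocytic line grown in culture. The members were named as a list of current or older symbols, and each was given the probe set that the platform annotation ties to that gene alone and that had the highest mean over the 12 arrays. All 53 were measured, among 19775 genes with such a probe set. The cells carried an EVI1 expression vector or the empty vector, both introduced by transduction, and logarithmically growing cultures received 50 ng/ml of the phorbol ester TPA or the same amount of its solvent ethanol for 24 h. The 4 groups were therefore EVI1-labelled cells with TPA, EVI1-labelled cells with ethanol, empty vector cells with TPA and empty vector cells with ethanol, with 3 biological replicates each. RNA was measured on Affymetrix U133 Plus 2.0 arrays from 250 ng of total RNA per sample, and values are log2 RMA signals.

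DNA replication begins when the origin recognition complex, CDC6 and CDT1 load the ring of MCM2 to MCM7 onto chromatin in G1, a step called licensing. At the start of S phase the kinases CDC7-DBF4 and cyclin E-CDK2 lead to the joining of CDC45 and the GINS complex, which turns the MCM ring into an active helicase. DNA polymerases, the sliding clamp PCNA, the single-strand binding protein RPA and enzymes that make deoxynucleotides then carry the fork forward. Many of these genes are known targets of E2F transcription factors, which act when cells pass from G1 into S phase. TPA activates protein kinase C, and U937 cells given phorbol esters are known to leave the cell cycle and take on macrophage traits.

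Because E2F targets are the classical frame for these genes, promoters were read from RefSeq windows on GRCh38.p14 that run from 250 bases before to 50 bases after an annotated start. A window was given for 46 of the 53 genes. The E2F motif was searched on both strands as TTTCCCGC, TTTCGCGC, TTTGCCGC or TTTGGCGC, whose matches on opposite strands can overlap. It lay in a window of 26 of the 46 genes, or 56.5%, against 3.99% of the 27305 genes in the table. Counted per window, it lay in 26 of 60, or 43.3%, against 3.31% of 35116 windows. The CCAAT box, letters CCAAT, was found in 58.7% of the 46 genes and 39.7% of all genes, and the CHR element, letters TTTGAA, in 6.52% and 18.2%. A match is a string of letters and was not tested as a binding site.

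The 250 bases before the start are shown for 7 genes that take different steps of replication and recur in the results below, with matches to the E2F motif in capitals. They are CDT1 (chr16:88803539-88803788, plus strand), MCM6 (chr2:135876444-135876693, minus strand), GINS2 (chr16:85688955-85689204, minus strand), CDC7 (chr1:91500862-91501111, plus strand), PCNA (chr20:5126623-5126872, minus strand), TYMS (chr18:657403-657652, plus strand) and RPA1 (chr17:1829755-1830004, plus strand), each written along the gene's strand. In MCM6 a forward and a reverse match overlap in each of 2 places. RPA1 is shown as a gene without a match in this stretch. MCM10, CDC45 and RRM2, whose windows are not printed, also have no match in them.
CDT1: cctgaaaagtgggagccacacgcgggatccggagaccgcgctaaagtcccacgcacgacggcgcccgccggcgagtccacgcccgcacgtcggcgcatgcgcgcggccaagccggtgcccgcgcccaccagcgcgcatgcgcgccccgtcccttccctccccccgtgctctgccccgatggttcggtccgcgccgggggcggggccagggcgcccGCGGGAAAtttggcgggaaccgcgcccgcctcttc
MCM6: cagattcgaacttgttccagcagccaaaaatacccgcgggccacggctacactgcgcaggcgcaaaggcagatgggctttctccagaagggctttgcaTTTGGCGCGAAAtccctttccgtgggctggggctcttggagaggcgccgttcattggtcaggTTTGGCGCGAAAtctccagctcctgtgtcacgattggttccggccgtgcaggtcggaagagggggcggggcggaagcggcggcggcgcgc
GINS2: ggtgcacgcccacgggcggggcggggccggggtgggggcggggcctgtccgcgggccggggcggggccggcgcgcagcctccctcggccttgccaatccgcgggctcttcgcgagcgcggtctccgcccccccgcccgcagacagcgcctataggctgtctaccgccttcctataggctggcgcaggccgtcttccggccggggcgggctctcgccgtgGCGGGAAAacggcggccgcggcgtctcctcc
CDC7: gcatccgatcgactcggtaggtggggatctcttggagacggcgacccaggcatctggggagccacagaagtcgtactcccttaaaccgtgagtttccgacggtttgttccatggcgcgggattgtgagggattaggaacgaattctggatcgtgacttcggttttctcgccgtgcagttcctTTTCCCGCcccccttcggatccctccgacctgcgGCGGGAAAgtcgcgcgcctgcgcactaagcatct
PCNA: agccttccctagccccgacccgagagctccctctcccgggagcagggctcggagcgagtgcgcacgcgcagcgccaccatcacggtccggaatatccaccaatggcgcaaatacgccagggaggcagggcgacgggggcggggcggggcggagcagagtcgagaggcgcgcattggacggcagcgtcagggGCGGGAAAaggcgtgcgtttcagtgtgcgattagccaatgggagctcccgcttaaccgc
TYMS: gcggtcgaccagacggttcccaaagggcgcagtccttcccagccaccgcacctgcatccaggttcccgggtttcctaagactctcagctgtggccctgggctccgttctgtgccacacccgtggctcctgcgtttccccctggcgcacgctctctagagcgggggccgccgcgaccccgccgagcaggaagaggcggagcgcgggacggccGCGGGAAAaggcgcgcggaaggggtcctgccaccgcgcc
RPA1: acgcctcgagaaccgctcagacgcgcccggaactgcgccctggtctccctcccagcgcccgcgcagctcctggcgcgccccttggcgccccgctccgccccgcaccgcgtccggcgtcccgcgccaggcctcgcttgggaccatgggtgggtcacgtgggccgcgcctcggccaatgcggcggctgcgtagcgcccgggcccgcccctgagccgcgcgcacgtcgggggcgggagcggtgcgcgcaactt

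With TPA, 52 of the 53 genes fell in EVI1-labelled cells and the same 52 fell in empty vector cells, while RFC5 rose in both on the probe set the selection picked. All 53 passed the test in each population (limma, Benjamini-Hochberg adjusted p at most 0.000341 in EVI1-labelled and 1.51e-05 in empty vector cells), against 40.0% and 43.2% of all genes. For calls of a fall alone the backgrounds were 20.6% and 22.5%, and for calls of a rise 19.4% and 20.7%. The median difference of the 53 was -3.18 on the log2 scale in EVI1-labelled cells, 9.04-fold lower, and -3.33 in empty vector cells, 10.1-fold lower. Over all genes the medians were 0.00 and 0.02. In no member did the 3 TPA values overlap the 3 ethanol values in either population, while 23.8% and 25.3% of all genes lay wholly lower with TPA and 22.8% and 25.0% wholly higher.

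The fall was large for most of the list. It exceeded 3 on the log2 scale for 29 members in EVI1-labelled cells, out of 160 such genes on the array, and for 31 members in empty vector cells, out of 218. Across the 53 genes the differences of the populations, which share no arrays, correlated at a Pearson r of 0.985 and a Spearman rho of 0.985, a description over genes that are not independent. With TPA the group mean of 10 members lay under 5.07, the lowest array median, in at least 1 population. These were ORC1, CDC6, CDT1, MCM8, MCM10, GINS1, POLE2, CLSPN, DTL and ZNF367, and at such levels RMA compresses differences and no floor is stated. In bulk RNA, fewer cells in S phase and less RNA per cell cannot be told apart.

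**Figure D1:**
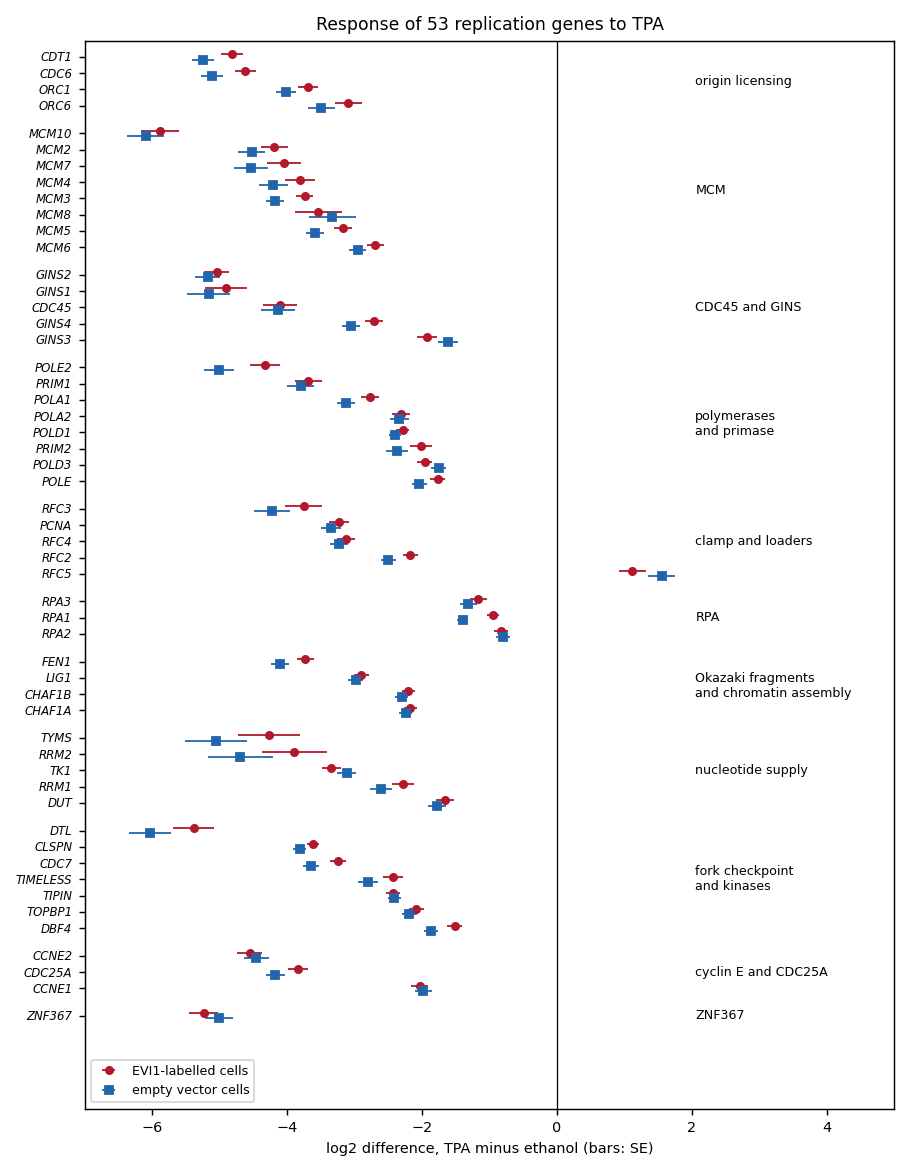
TPA minus ethanol difference (log2) of each of the 53 genes, grouped by role, in EVI1-labelled cells (circles) and empty vector cells (squares), with bars of 1 standard error from the limma fit over 12 arrays. Of the 53 genes, 52 lie left of 0 in both populations and RFC5 lies right of it, and the RPA subunits lie nearest 0 among those that fell.

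The 4 licensing genes fell by a median of 4.15 in EVI1-labelled cells and 4.57 in empty vector cells on the log2 scale. CDT1, the loading factor that hands MCM rings to origins, read 5.09, 4.30 and 4.60 in EVI1-labelled cells with TPA against 9.54, 9.40 and 9.49 with ethanol. In empty vector cells it read 4.21, 4.35 and 3.92 with TPA and 9.40, 9.35 and 9.49 with ethanol. All 6 TPA arrays lay far below all 6 ethanol arrays, and the difference was -4.81 ± 0.16 (SE) in EVI1-labelled and -5.25 ± 0.16 in empty vector cells (adjusted p 4.13e-11 and 1.3e-11). The other probe set of CDT1 fell by 2.30 and 2.44, and the mean of both by 3.56 and 3.84. CDC6, the ATPase that works beside CDT1, fell by 4.62 and 5.11, and ORC1, the largest ORC subunit, by 3.69 and 4.02. ORC6, another ORC subunit, fell by 3.10 ± 0.20 in EVI1-labelled and 3.50 ± 0.20 in empty vector cells.

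Of the MCM genes, MCM2 to MCM7 code for the replicative helicase ring, MCM8 for a relative that acts in homologous recombination, and MCM10 for an unrelated initiation factor that helps to start the helicase. All 8 fell, with medians of -3.78 in EVI1-labelled and -4.19 in empty vector cells. MCM10 fell by 5.89 ± 0.28 in EVI1-labelled and 6.10 ± 0.28 in empty vector cells. It read 4.75, 3.39 and 3.42 in EVI1-labelled cells with TPA against 9.69, 9.83 and 9.70 with ethanol, and 4.03, 3.76 and 3.39 in empty vector cells with TPA against 9.88, 9.82 and 9.78 with ethanol. All 6 TPA values lay under 5.07, so the size of this fall has no stated floor, and with the mean of its 3 probe sets it fell by 5.20 in EVI1-labelled and 5.55 in empty vector cells. MCM3 had 8.54, 8.03 and 8.05 in EVI1-labelled cells with TPA against 11.96, 11.95 and 11.94 with ethanol, and 7.93, 7.61 and 7.67 in empty vector cells with TPA against 11.96, 11.96 and 11.83 with ethanol. In between, MCM2 fell by 4.19 and 4.52, MCM7 by 4.04 and 4.54, MCM4 by 3.81 and 4.21, MCM8 by 3.54 and 3.33 and MCM5 by 3.18 and 3.59 in EVI1-labelled and empty vector cells. The smallest fall of this set was that of MCM6, -2.69 ± 0.13 and -2.96 ± 0.13, in a gene whose promoter holds overlapping E2F matches in 2 places.

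CDC45 and the 4 GINS genes complete the helicase, and all 5 fell, with medians of -4.10 in EVI1-labelled and -4.13 in empty vector cells. CDC45 itself fell by 4.10 ± 0.25 and 4.13 ± 0.25. The 4 subunits of GINS form 1 particle with equal numbers of each. On the probe set with the highest mean, GINS2 fell by 5.04 ± 0.19 in EVI1-labelled and 5.18 ± 0.19 in empty vector cells, and GINS1 by 4.91 and 5.16. GINS4 followed at -2.72 and -3.05, and GINS3 fell by 1.92 ± 0.15 and 1.62 ± 0.15. GINS2 read 5.87, 4.97 and 5.33 in EVI1-labelled cells with TPA against 10.40, 10.47 and 10.43 with ethanol, and 5.55, 5.11 and 4.98 in empty vector cells with TPA against 10.38, 10.32 and 10.48 with ethanol. GINS3 read 7.22, 6.72 and 7.38 in EVI1-labelled cells with TPA against 9.04, 9.02 and 9.03 with ethanol, and 7.32, 7.28 and 7.66 in empty vector cells with TPA against 9.14, 8.96 and 9.02 with ethanol. The groups were apart in both genes, by a wider gap in GINS2, and the difference between subunits was not tested. GINS2 has 3 probe sets and GINS4 has 4, and with the mean of a gene's probe sets GINS2 fell by 2.07 and 2.09 and GINS4 by 1.44 and 1.79. On its second probe set GINS3 fell by 2.12 and 1.75, and GINS1 has 1 probe set.

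The 8 polymerase and primase genes fell by medians of 2.30 in EVI1-labelled and 2.38 in empty vector cells, less than the median of the whole list. POLE2, the second subunit of the leading-strand polymerase epsilon, fell most, at -4.33 ± 0.22 and -5.01 ± 0.22, while POLE, the catalytic subunit of the same enzyme, fell by 1.77 ± 0.11 and 2.04 ± 0.11. POLE2 ran between 4.96 and 6.04 in EVI1-labelled cells with TPA against 9.63, 9.73 and 9.62 with ethanol, and read 4.93, 4.44 and 4.49 in empty vector cells with TPA against 9.72, 9.54 and 9.62 with ethanol. Within each population the TPA arrays were all lower. PRIM1, the catalytic primase subunit that makes RNA primers, fell by 3.69 and 3.80, and its partner PRIM2 by 2.02 and 2.37. POLA1 and POLA2, the polymerase alpha subunits that extend those primers, fell by 2.77 and 2.31 in EVI1-labelled and by 3.12 and 2.34 in empty vector cells. POLD1, the catalytic subunit of the lagging-strand polymerase delta, fell by 2.29 and 2.40, and its accessory subunit POLD3 by 1.96 ± 0.11 and 1.75 ± 0.11.

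PCNA encodes the ring that holds polymerases on DNA, and RFC genes encode the loader that opens it. PCNA read 9.64, 8.88 and 9.18 in EVI1-labelled cells with TPA against 12.46, 12.52 and 12.43 with ethanol, and 9.57, 9.23 and 9.41 in empty vector cells with TPA against 12.80, 12.74 and 12.71 with ethanol. Each TPA array was lower than every ethanol array, by -3.24 ± 0.15 in EVI1-labelled and -3.35 ± 0.15 in empty vector cells (adjusted p 6.56e-10 and 3.56e-10). RFC3 fell by 3.76 ± 0.27 and 4.22 ± 0.27, RFC4 by 3.13 and 3.23, and RFC2 by 2.17 and 2.50.

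RFC5, another small subunit of the same loader, gave opposite answers on its probe sets. On 213734_at, which has the highest mean, it read 9.92, 10.24 and 9.16 in EVI1-labelled cells with TPA against 8.73, 8.76 and 8.48 with ethanol, and 9.99, 9.82 and 9.95 in empty vector cells with TPA against 8.51, 8.27 and 8.32 with ethanol. This is a rise of 1.12 ± 0.20 in EVI1-labelled and 1.55 ± 0.20 in empty vector cells. On 203209_at it read 7.74, 7.32 and 6.84 in EVI1-labelled cells with TPA against 10.25, 10.19 and 10.19 with ethanol, and 7.21, 6.94 and 6.68 in empty vector cells with TPA against 10.26, 10.10 and 10.21 with ethanol. That is a fall of 2.91 and 3.25, and 203210_s_at fell by 2.76 and 3.18. With the mean of its 3 probe sets RFC5 fell by 1.52 and 1.62, and which RNA each probe set reads was not tested. Of the 101 probe sets of the 53 genes, 95 fell, 2 rose and 4 were not called in EVI1-labelled cells, and 93 fell, 1 rose and 7 were not called in empty vector cells. The second that rose in EVI1-labelled cells was a dim probe set of CCNE1, by 0.27 (adjusted p 0.047), and RFC5 is the gene in which the probe set with the highest mean went up. The choice of probe set moved the size of the response by over 1.5 times for 8 members in each population, RFC5 among them. With the mean of a gene's probe sets in place of the brightest, MCM8 fell by 1.62 in EVI1-labelled and 1.54 in empty vector cells, CLSPN by 1.80 and 1.80, POLA2 by 0.98 and 0.97 and CCNE1 by 0.88 and 1.11. POLD3 fell by 1.27 in EVI1-labelled and TIMELESS by 1.84 in empty vector cells, GINS2 and GINS4 are given above, and the median of the 53 was -2.79 and -3.08.

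**Figure D2:**
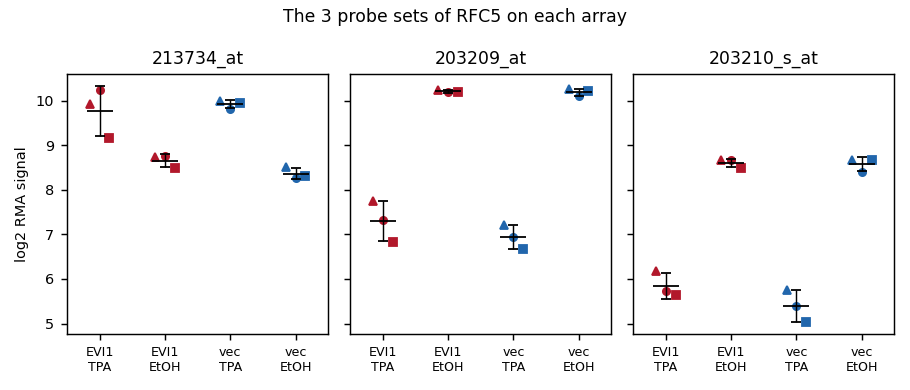
Log2 RMA signal of the 3 probe sets of RFC5 on each array, by group, with the mean and 1 SD of 3 arrays (vec, empty vector; EtOH, ethanol). TPA arrays lie above ethanol arrays for 213734_at and below them for 203209_at and 203210_s_at.

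The RPA trimer coats single-stranded DNA at forks and also in repair, and its 3 genes fell least among the roles, with medians of -0.95 in EVI1-labelled and -1.31 in empty vector cells. RPA1, the large subunit, read 10.83, 10.97 and 10.68 in EVI1-labelled cells with TPA against 11.77, 11.77 and 11.79 with ethanol. In empty vector cells it read 10.43, 10.30 and 10.34 with TPA and 11.78, 11.73 and 11.75 with ethanol. It thus fell by 0.95 ± 0.08 and 1.40 ± 0.08, or 1.93-fold and 2.63-fold. RPA3, the small subunit, fell by 1.17 and 1.31, and RPA2, the middle one, by 0.83 ± 0.10 and 0.80 ± 0.10.

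Okazaki fragments on the lagging strand are trimmed by the flap nuclease FEN1 and joined by the ligase LIG1, and CHAF1A and CHAF1B belong to the chaperone CAF-1, which lays histones behind the fork. All 4 fell, with FEN1 at -3.73 ± 0.13 in EVI1-labelled and -4.11 ± 0.13 in empty vector cells. LIG1 fell by 2.90 and 2.99 and CHAF1B by 2.20 and 2.30. CHAF1A fell least, by 2.18 ± 0.10 and 2.24 ± 0.10.

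Nucleotide supply genes fell by medians of 3.34 in EVI1-labelled and 3.12 in empty vector cells. TYMS, the thymidylate synthase, read 10.19, 8.26 and 8.06 in EVI1-labelled cells with TPA against 13.11, 13.15 and 13.06 with ethanol, and 8.99, 7.57 and 7.51 in empty vector cells with TPA against 13.10, 13.08 and 13.06 with ethanol. Replicate 1 stood above the other TPA arrays in both populations and still lay well below every ethanol array. The fall was 4.27 ± 0.46 and 5.06 ± 0.46 (adjusted p 3.05e-06 and 4.68e-07). RRM2, the S-phase subunit of ribonucleotide reductase, fell by 3.89 ± 0.48 and 4.69 ± 0.48, against 2.29 and 2.61 for RRM1, the large subunit that also pairs with another small subunit. TK1, the thymidine kinase of cycling cells, fell by 3.34 and 3.12, and DUT, which removes dUTP, by 1.66 ± 0.14 and 1.78 ± 0.14. The other probe sets of DUT changed by -2.14 and -2.96 in EVI1-labelled and by -2.28 and -3.45 in empty vector cells, and the mean of all 3 by -2.25 and -2.50.

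Of the 7 fork checkpoint and kinase genes, all fell, with medians of -2.43 in EVI1-labelled and -2.80 in empty vector cells. DTL, the adaptor through which a ubiquitin ligase removes CDT1 in S phase, fell by 5.39 ± 0.31 and 6.03 ± 0.31, with a TPA mean under 5.07 in empty vector cells. CLSPN, which relays the signal of stalled forks, fell by 3.62 and 3.82, and its partners TIMELESS and TIPIN by 2.43 and 2.43 in EVI1-labelled and by 2.80 and 2.41 in empty vector cells. CDC7, the kinase that fires licensed origins, fell by 3.24 ± 0.12 and 3.64 ± 0.12, whereas its activator DBF4 fell least, by 1.52 ± 0.11 and 1.87 ± 0.11. TOPBP1, an activator of the checkpoint kinase ATR, fell by 2.09 and 2.19.

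Both cyclin E genes fell. CCNE2 fell by 4.56 ± 0.19 in EVI1-labelled and 4.46 ± 0.19 in empty vector cells, and CCNE1 by 2.04 ± 0.12 and 1.98 ± 0.12. CCNE1 read 6.15, 6.14 and 6.37 in EVI1-labelled cells with TPA against 8.19, 8.32 and 8.26 with ethanol, and 6.10, 6.49 and 6.54 in empty vector cells with TPA against 8.39, 8.51 and 8.18 with ethanol. CDC25A, the phosphatase that activates cyclin E-CDK2, fell by 3.84 and 4.17. ZNF367, a zinc finger protein listed with these genes, fell by 5.24 ± 0.21 and 5.01 ± 0.21.

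**Figure D3:**
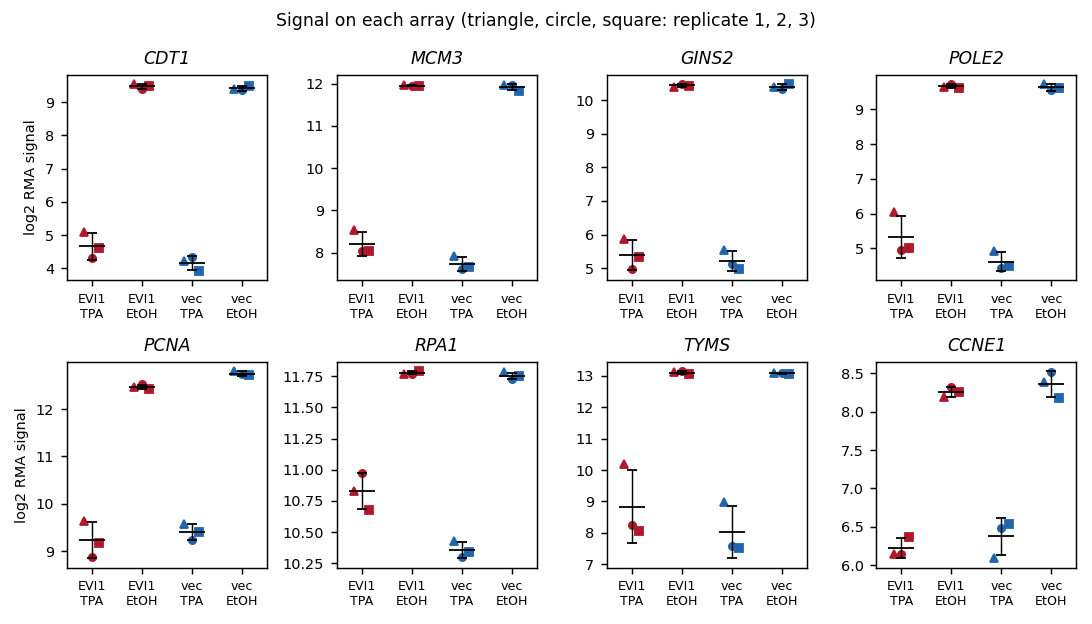
Log2 RMA signal of 8 genes on each array, by group, with the mean and 1 SD of 3 arrays, on a separate vertical scale for each gene (vec, empty vector; EtOH, ethanol). TPA arrays lie below ethanol arrays in every panel, by 4.81 and 5.25 for CDT1 and by 0.95 and 1.40 for RPA1 in EVI1-labelled and empty vector cells.

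The genes with an E2F match in their window had a median TPA difference of -3.68 in EVI1-labelled and -4.00 in empty vector cells, and the 20 with a window but no match -2.36 and -2.70. For CCAAT the medians were -3.62 with and -2.31 without a match in EVI1-labelled cells and -3.80 and -2.50 in empty vector cells, and for CHR, with a match in 3 genes, -1.66 and -3.34, and -1.87 and -3.50. These are descriptions of the list with no test, and many windows hold more than 1 of the motifs. Counted from the start, the match shown above lay at -35 to -28 in CDT1, at -31 to -24 in GINS2, at -39 to -32 in TYMS and at -59 to -52 in PCNA. On the probe set with the highest mean, the falls of CDT1 and GINS2 were among the larger ones, and that of PCNA was near the median of the list. With the mean of a gene's probe sets, GINS2 fell by 2.07 in EVI1-labelled and 2.09 in empty vector cells. The median of the 53 was then -2.79 and -3.08, so the place of GINS2 depends on the probe set.

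Other genes of replication were taken from a separate list of 65, of which 62 were measured, to see how far the members' partners moved with them. In EVI1-labelled cells 51 fell, 6 rose and 5 were not called with TPA, with a median of -1.20, and in empty vector cells 53 fell, 4 rose and 5 were not called, with a median of -1.36. Falls were thus called for 82.3% and 85.5% of the 62, against 20.6% and 22.5% of all genes, of which 19.4% and 20.7% rose. The largest falls in both populations were those of TOP2A, which untangles sister DNA, EXO1, a nuclease of repair, DSCC1, part of an alternative clamp loader, and CHEK1, the checkpoint kinase. These fell by 4.67, 3.90, 3.57 and 3.55 in EVI1-labelled and by 4.66, 3.82, 4.04 and 3.47 in empty vector cells. The largest rises were those of POLD4, the smallest polymerase delta subunit, at 1.80 and 1.59, SAMHD1, which degrades deoxynucleotides, at 1.28 and 0.83, and TK2, the mitochondrial thymidine kinase, at 1.12 and 1.24. RRM2B, the small reductase subunit used outside S phase, was 0.46 higher in EVI1-labelled (adjusted p 0.0181) and 0.33 higher in empty vector cells (adjusted p 0.0753), and ORC4 rose by 0.35 and 0.23.

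The same values are set side by side here for partners in 1 complex, with no test of the difference between genes, and probe sets of a single gene such as CDT1 also differed. In the origin recognition complex, ORC1 and ORC6 fell by 3.69 and 3.10 in EVI1-labelled and by 4.02 and 3.50 in empty vector cells. ORC3 fell by 0.85 and 0.99 and ORC5 by 1.04 and 1.26, ORC2 differed by -0.11 in EVI1-labelled (adjusted p 0.466) and -0.37 in empty vector cells (adjusted p 0.0104), and ORC4 rose as above. ORC4's call was lost with the mean of its probe sets (adjusted p 0.0969 and 0.203), and in empty vector cells in 5 of 12 cases of leaving out 1 array (adjusted p up to 0.123). RRM2B's call in EVI1-labelled cells was lost in 2 of 12 (up to 0.083). In polymerase delta, POLD2 fell by 1.98 and 2.46 beside POLD1 and POLD3, while POLD4 read 8.16, 8.25 and 8.34 in EVI1-labelled cells with TPA against 6.43, 6.42 and 6.51 with ethanol. In empty vector cells POLD4 read 8.26, 7.96 and 7.99 with TPA and 6.51, 6.41 and 6.51 with ethanol. The mitochondrial kinase DGUOK differed by -0.08 and -0.03, neither of which passed the test, while DTYMK, the thymidylate kinase that feeds replication, fell by 2.60 and 2.62.

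**Figure D4:**
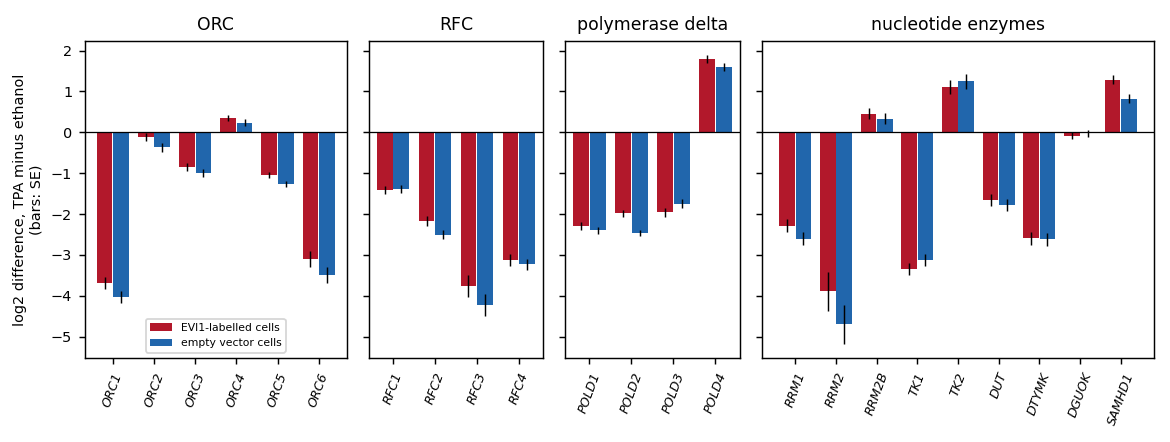
TPA minus ethanol difference (log2) of members and of other genes of the same complex or task, in EVI1-labelled cells (left bars) and empty vector cells (right bars), with 1 standard error and bars starting at 0. RFC5 is not drawn, since its probe sets disagree. ORC1 and ORC6 fell by more than 3 in both populations while ORC2 to ORC5 lay between -1.26 and 0.35, and POLD4, TK2, RRM2B and SAMHD1 lay above 0.

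The remaining question was whether the vector changed these levels. MECOM, the gene of EVI1, averaged 3.17 in EVI1-labelled and 3.17 in empty vector cells with TPA, and 3.07 and 3.01 with ethanol, with no difference called (adjusted p 0.986 and 0.919). Its other probe sets had means under 3 and differences between -0.08 and 0.23 (smallest adjusted p 0.102). The labels were therefore not checked by the transduced gene, and whether these probe sets can read RNA of the vector was not tested. With TPA, on the probe set used for each gene, 6 of the 53 genes were higher in EVI1-labelled than in empty vector cells and 0 were lower. This is 11.3% of the list against 11.2% of all genes called in that comparison, with 5.90% of all genes called higher and 5.30% lower. At an unadjusted p under 0.05, 18 members passed in either direction, or 34.0%, against 22.4% of all genes. The median difference of the 53 was 0.21, with 40 above 0 and 13 below, against 0.01 over all genes. In 8 members the EVI1-labelled arrays lay wholly above, and in 0 wholly below, against 11.9% and 10.5% of all genes.

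The 6 genes were CDC6, MCM3, MCM7, RFC2, RPA1 and CLSPN. The standard errors given here use the spread shared by the 4 groups, which includes the tighter ethanol arrays. In EVI1-labelled and empty vector cells the members' median SD was 0.32 and 0.20 with TPA, against 0.07 and 0.08 with ethanol. These errors may therefore be too small for a comparison of TPA arrays alone. RPA1 was higher by 0.47 ± 0.08 (adjusted p 0.00204), with 10.83, 10.97 and 10.68 in EVI1-labelled and 10.43, 10.30 and 10.34 in empty vector cells. RFC2 was higher by 0.53 ± 0.11 (adjusted p 0.00697), with 8.77, 8.35 and 8.44 in EVI1-labelled and 8.03, 7.81 and 8.12 in empty vector cells. Both groups were apart for these genes, and neither call was lost when any 1 of the 12 arrays was left out, although RFC2 missed the threshold when only these 2 groups were fitted (adjusted p 0.0531). MCM7 was higher by 0.91 ± 0.25 (adjusted p 0.0317), with 8.37, 7.20 and 7.35 in EVI1-labelled and 7.14, 6.31 and 6.73 in empty vector cells. CLSPN was higher by 0.37 ± 0.09 (adjusted p 0.0189), MCM3 by 0.47 ± 0.13 (adjusted p 0.0285) and CDC6 by 0.55 ± 0.16 (adjusted p 0.0427). CLSPN and CDC6 are among the 10 genes with a TPA mean under 5.07, where a difference has no stated floor. Leaving out 1 array ended the call of CDC6 in 9 of 12 cases, of CLSPN in 4 and of MCM3 and MCM7 in 3 each. With the mean of a gene's probe sets the calls of CDC6 (adjusted p 0.0999), MCM7 (0.0779) and CLSPN (0.527, at a difference of 0.09) were lost. MCM7 was also lost with an intensity trend and robust moderation (0.0795), CDC6 with every probe set tested as its own feature (0.052) and CLSPN without both TPA arrays of replicate 1 (0.0927), and with only these 2 groups fitted RPA1 remained (1 of the 6). The second probe set of RPA1 was called (adjusted p 0.00302), and those of MCM7 (0.177), RFC2 (0.0742) and CDC6 (0.328) were not. POLD3, outside the 6, was 0.47 higher on its second probe set (0.0107), against -0.24 on the one used. The third probe set of DUT was 0.72 higher (0.0219).

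With TPA, most members of the list stood highest on replicate 1. Of the 53 genes, 45 were highest on replicate 1 among the EVI1-labelled arrays with TPA and 38 among the empty vector arrays with TPA. Their median deviation from the group mean on these arrays was 0.33 and 0.17, against -0.02 and -0.00 over all genes. With ethanol the median deviations of the members lay between -0.03 and 0.03 on all 6 arrays. The median difference between populations with TPA was 0.34 for replicate 1, with 49 members higher, 0.13 for replicate 2, with 31 higher, and 0.14 for replicate 3, with 34 higher. Without EVI1-labelled TPA replicate 1, 2 members were called higher and 3 lower, namely MCM8, GINS1 and TIPIN. Of all genes, 1830 were called in that fit, against 2214 with every array kept. Without EVI1-labelled TPA replicate 3, 11 members were called higher, without empty vector TPA replicate 2, 3 were, and without empty vector TPA replicate 3, 2 were. In the same order, 2616, 1693 and 1745 of all genes were called. With both TPA arrays of replicate 1 left out, an alternative chosen after the data were seen, 11 members were higher and 2 lower, with MCM8 at -0.94 and GINS1 at -0.89. In that fit 1567 of all genes were called. With the replicate number as a block, since the numbers pair the arrays with TPA, 9 members were higher, adding POLE2 (adjusted p 0.0249), FEN1 (0.0336) and TIMELESS (0.0477). With the block 2498 of all genes were called. Calls among all genes thus moved with the setting too, and whether the members moved apart from them was not tested.

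**Figure D5:**
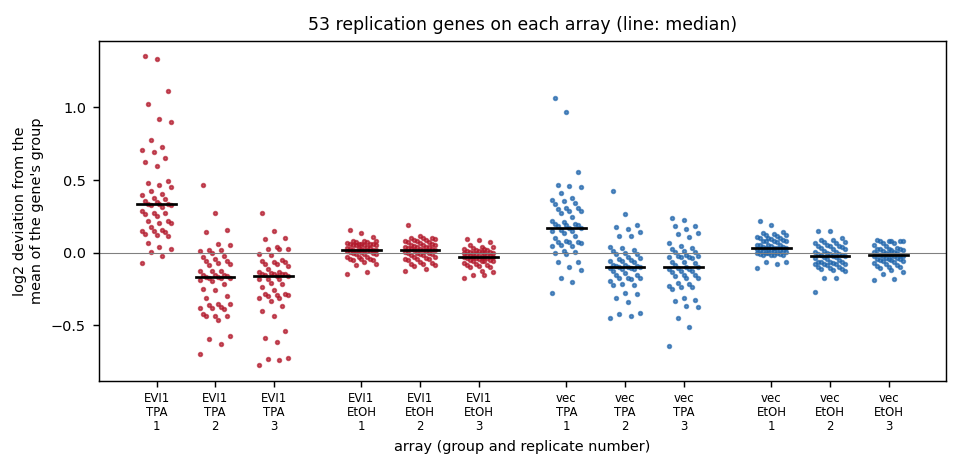
Deviation (log2) of each of the 53 genes on each array from that gene's group mean, with the median of the array as a line (vec, empty vector; EtOH, ethanol). Replicate 1 lies highest in both TPA groups, at medians of 0.33 in EVI1-labelled and 0.17 in empty vector cells, and the ethanol arrays lie within 0.03 of 0.

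With ethanol, 0 of the 53 genes were called between EVI1-labelled and empty vector cells by limma, against 3.27% of all genes (1.32% higher and 1.95% lower), and 3 passed at an unadjusted p under 0.05, or 5.66%, against 12.7% of all genes. The median difference was 0.03, the smallest adjusted p was 0.095, for GINS4, and the 95% interval reached a median of 0.31 to either side of the estimate. The arrays lay wholly lower in EVI1-labelled cells for 11 members and wholly higher for 7, against 11.4% and 10.6% of all genes. GINS1 read 10.01, 9.98 and 9.88 in EVI1-labelled and 10.86, 10.72 and 10.70 in empty vector cells, a difference of -0.80 with a 95% interval of -1.48 to -0.13 (adjusted p 0.267). MCM7 read 11.69, 11.67 and 11.69 in EVI1-labelled and 11.29, 11.17 and 11.35 in empty vector cells, a difference of 0.41 with an interval of -0.13 to 0.96 (adjusted p 0.574). The arrays were apart in both genes and tight within each group. The spread shared by the 4 groups includes the TPA arrays, where the members' median SD was 0.32 and 0.20, against 0.07 and 0.08 with ethanol in EVI1-labelled and empty vector cells. When only the ethanol groups were fitted, GINS1 (adjusted p 0.000757), GINS4 (0.0186) and MCM8 (0.0214) were called lower and MCM7 (0.0137) higher, against 4.78% of all genes called in that fit. PCNA read 12.46, 12.52 and 12.43 in EVI1-labelled and 12.80, 12.74 and 12.71 in empty vector cells, a difference of -0.28 with an interval of -0.60 to 0.04, and was not called in either fit. GINS1, MCM8 and PCNA are the 3 members on chromosome 20. Their differences were -0.80, -0.40 and -0.28 with ethanol and -0.55, -0.60 and -0.17 with TPA. On chromosome 7, MCM7, RFC2, DBF4 and RPA3 differed by 0.41, 0.20, -0.09 and -0.10 with ethanol and by 0.91, 0.53, 0.26 and 0.04 with TPA. On chromosome 8, GINS4, MCM4 and CCNE2 differed by -0.47, -0.26 and 0.23 with ethanol and by -0.13, 0.13 and 0.13 with TPA. Whether the shared chromosomes play a part was not tested.

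Among the partners, ORC5 was the gene of the separate list called with ethanol (1.61% of the 62, against 3.27% of all genes). It was 0.57 higher in EVI1-labelled cells (adjusted p 0.000882), and also 0.78 higher with TPA. Its call with ethanol was lost with the mean of its probe sets (0.33, adjusted p 0.17). With TPA 9 of the 62 were called higher and 2 lower, or 17.7%, against 11.2% of all genes (5.90% higher and 5.30% lower). Those higher were led by CHTF18, a partner of DSCC1, at 0.89, DSCC1 at 0.79, ORC5 at 0.78 and WDHD1, a scaffold of the fork, at 0.55. TK2 at -0.80 and MCMBP, which binds MCM proteins, at -0.34 were lower. WDHD1 lost its call with only the 2 groups fitted (adjusted p 0.0832) and without EVI1-labelled TPA replicate 1 (0.0638) or empty vector TPA replicate 3 (0.0651). MCMBP lost its call with only the 2 groups (0.0788) and without EVI1-labelled TPA replicate 2 (0.0529).

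The response to TPA itself was compared between populations as the difference of differences. None of the 53 genes was called by limma, against 1.98% of all genes (0.936% higher and 1.05% lower), and 5 passed at an unadjusted p under 0.05, or 9.43%, against 12.5% of all genes. The difference was above 0, a smaller fall in EVI1-labelled cells, for 43 members and below 0 for 10, with a median of 0.26 against 0.01 over all genes. RPA1 had the smallest adjusted p, 0.0747, at 0.45 ± 0.12. For TYMS the estimate was 0.79 with a 95% interval of -0.63 to 2.20, so the arrays do not settle its size or sign. This comparison uses the same TPA arrays as the one between populations above, and its counts are no separate support for it.

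Facts of the whole series that touch these results were few. Within a group the arrays correlated at 0.991 to 0.997 over all probe sets, and array medians lay between 5.07 and 5.11. The gap between the 3' and 5' control probe sets of ACTB, a measure of RNA integrity and labelling, was 1.31 ± 0.17 with TPA and 1.85 ± 0.13 with ethanol (SD, n = 6 each, two-sided exact permutation p 0.002165). For GAPDH the gap was 0.40 ± 0.11 with TPA and 0.57 ± 0.15 with ethanol (same test, p 0.047619). The part of these gaps in the results was not tested. Of 9 myeloid markers 8 had a group mean over 5.07, and their summed log2 level ran from 73.3 to 74.3 and from 74.8 to 76.7 with TPA in EVI1-labelled and empty vector cells, against 67.1 to 67.4 and 66.1 to 67.8 with ethanol. The members of this sum did not all move one way. CSF1R averaged 8.98 with TPA against 5.99 with ethanol in EVI1-labelled cells, but LYZ fell by 1.63 and 1.29 and MPO by 1.05 and 0.63 in EVI1-labelled and empty vector cells. Of the markers of other cells, 1 of 4 T cell (CD3D), 2 of 3 B cell (CD79A and PAX5), 3 of 3 erythroid and 4 of 6 epithelial and fibroblast markers had a group mean over 5.07, while CD3E, CD2, CD8A and MS4A1 did not. With TPA against ethanol, over both populations, the summed levels ran from 17.55 to 18.76 against 17.42 to 18.18 for T cell, 13.93 to 15.08 against 16.16 to 18.02 for B cell, 18.74 to 19.83 against 17.94 to 19.0 for erythroid and 30.65 to 31.81 against 30.46 to 31.67 for epithelial and fibroblast markers, and their part in the results was not tested. PAX5, a B cell factor, averaged 5.54 with TPA against 8.23 with ethanol in EVI1-labelled cells, and 4.86 against 7.33 in empty vector cells.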

How the data were processed

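The authors deposited log2 RMA signals with 2 decimals. The submitters' processing notes name RMA and Affymetrix Expression Console 1.3. RMA gives every array the same distribution, so a change shared by most genes would not be seen, and no detection call was used. Of 54675 probe sets, 62 were controls, and 41097 named 1 gene, 1801 several and 11777 none in the platform annotation given for this work. Genes named by the first kind were used, each by its probe set with the highest mean.

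A linear model with a mean for each group was fitted to the 12 arrays together in limma 3.58.1 (R 4.3.3). Variances were moderated by eBayes, with 8 residual degrees of freedom and 5.22 from the prior. Two-sided p-values were adjusted by Benjamini-Hochberg over 19775 genes, with a threshold of 0.05. The code was tested on simulated data. Precision is limited by there being 3 arrays in a group, and p-values measure the spread between samples called biological replicates, which may not be separate transductions. The 53 members, the 65 other replication genes, the markers and the tests were chosen with earlier results of these data known. Named genes are all members, with values for the largest and smallest TPA difference of each role, members called between populations, and up to 4 rises and falls of the other list. Of that list 3 genes were not analysed here, nor were E2F genes.

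The labels give each group the replicate numbers 1 to 3. Deviations of same-numbered arrays from the group means had correlations of 0.415, 0.130 and 0.151 between EVI1-labelled and empty vector cells with TPA, all above 0.1, and no other pair of groups passed in all numbers, so the numbers were taken to pair samples there. Alternatives left out each array, added the replicate block, left out dim genes, averaged a gene's probe sets, tested every probe set, subtracted array medians, used an intensity trend, or fitted 2 groups alone. Promoters are RefSeq's, on GRCh38.p14.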

Additional observations from a re-analysis of the deposited data

Results flagged for a closer look

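By the test of the difference of differences no member of the list was called, and 3 of the other replication genes were, each falling less in EVI1-labelled cells. The 3 are 4.84% of the 62 measured, against 1.98% of all genes called. CHTF18, part of an alternative clamp loader, differed by 0.95 (adjusted p 0.0253): it fell by 1.70 in EVI1-labelled and by 2.65 in empty vector cells. Its values were 5.24, 5.67 and 5.80 in EVI1-labelled cells with TPA against 7.34, 7.34 and 7.13 with ethanol, and 4.87, 4.48 and 4.70 in empty vector cells with TPA against 7.44, 7.26 and 7.30 with ethanol. The 3 empty vector values with TPA lay under 5.07, where RMA compresses differences, so the size of that fall has no stated floor. RNASEH2B, a subunit of the nuclease that removes ribonucleotides from DNA, differed by 0.68 (adjusted p 0.0389), with falls of 2.31 and 2.99. POLD2, a subunit of polymerase delta, differed by 0.48 (adjusted p 0.0443), with falls of 1.98 and 2.46. Leaving out 1 array ended the call of CHTF18 in 7 of 12 cases, and of RNASEH2B and POLD2 in 10 of 12 each. RNASEH2B also lost its call with the mean of its probe sets (0.40, adjusted p 0.111). With every probe set tested as its own feature, RNASEH2B (adjusted p 0.0518) and POLD2 (0.0669) were not called.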

How the results depend on the processing

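The falls with TPA held: 52 members were called lower in both populations under every alternative run except the mean of a gene's probe sets, which gave 53 lower and 0 higher because RFC5 turned to -1.52 in EVI1-labelled and -1.62 in empty vector cells. Between populations with TPA, 6 members were called higher, and 3 with the mean of probe sets, 1 with only the 2 groups compared (all genes 1241 against 2214), and 9 with the replicate block, where numbers pair the samples. Leaving out 1 array gave 2 to 11 higher and 0 to 3 lower, and leaving out both TPA arrays of replicate 1 gave 11 higher and 2 lower. Of all genes, 1532 to 2616 were called with 1 array left out and 1567 with both left out. The mean of probe sets gave 2040 and the block 2498. With ethanol, 0 were called, and 1 lower with the mean of probe sets, 3 lower and 1 higher with only the 2 groups, and 2 lower without both TPA arrays of replicate 1. Leaving out 1 array gave 0 to 2 lower, with 369 to 787 of all genes called against 647. For the difference in response, 0 were called, and 1 higher (RPA1, 0.45) without dim genes (adjusted p 0.0379) or with an intensity trend and robust moderation (0.025), and 1 (TYMS, 0.59, adjusted p 0.0397) without both TPA arrays of replicate 1. Leaving out 1 array gave 0 to 2 higher (RPA1, 0.0204, and CDC7, 0.0325, without EVI1-labelled TPA replicate 3), with 188 to 681 of all genes called against 392, the most without EVI1-labelled TPA replicate 3. The cause was not tested. The block changed no other call of a member. Of the other replication genes it added TK2 with ethanol (-0.68, adjusted p 0.0162), also called without dim genes (0.0394) and with only the 2 groups (0.0278). With ethanol the same-numbered correlations between populations were 0.18, 0.14 and 0.08, each the highest for its number but not all above 0.1. Across all named genes, 1272 values between populations with TPA stayed on their side of the threshold, 55 lost and 33 gained a call. Low signals limit the size of the falls of the 10 genes named above with a TPA mean under 5.07.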
